A study of Homo sapiens with 36 samples.

Results

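Cells that stop dividing for good after drug treatment are often recognised by a small set of transcripts, and 8 of these, LMNB1, HMGB1, HMGB2, GLB1, FUCA1, GDF15, IGFBP3 and TIMP1, were followed here. They were chosen as markers of therapy-induced senescence, the first 3 expected to fall and the other 5 to rise, and each was found by its Ensembl identifier in GENCODE release 44, so that 8 of the 29872 genes in the table were described. The RNA came from LNCaP cells, a human line of prostate cancer origin with luminal and androgen-responsive features. Cells received vehicle, AU2-94 at 1 or 2 µM, atirmociclib at 1 or 2 µM, or ribociclib at 2 µM for 24 h or 72 h, with 3 biological replicates in each of the 12 groups and 36 libraries in all. AU2-94 and atirmociclib are CDK4-selective inhibitors and ribociclib inhibits CDK4 and CDK6. Every group was the same unmodified line, vehicle groups carry a dose of 2 µM in the sample labels, and wells of the 72 h groups were plated at a lower density, so that time in culture and plating density cannot be told apart.

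In senescence a cell leaves the cycle permanently but stays metabolically active. Its nucleus loses lamin B1, a filament protein under the nuclear envelope, and the DNA-bending proteins HMGB1 and HMGB2 leave chromatin or fall in amount. Its lysosomes expand, which is why the lysosomal enzymes beta-galactosidase (GLB1) and alpha-L-fucosidase (FUCA1) serve as markers, and it releases a mixture of cytokines, proteases and growth factor binding proteins to which GDF15, IGFBP3 and TIMP1 belong. LMNB1 and HMGB2 are also transcribed mostly in cycling cells, and whether their fall here marks senescence or another arrest was not tested. In RNA from a whole well, fewer cells of a kind and less RNA per cell cannot be told apart.

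Promoters of 7 of the 8 genes were matched in the RefSeq table on GRCh38.p14, with 10 windows of 250 bases before a start site, and 3 windows with at most 2 bases in the exons of their gene are shown: 1 each for LMNB1 and HMGB1, which both fell, and that of IGFBP3, which was called in both directions. The HMGB1 window was chosen among several with its boxes in view. They are read 5′ to 3′ on the strand of the gene, with capitals for each CCAAT box or its reverse complement. The LMNB1 window is chr5:126776373-126776622 (+ strand, 48.4% G and C), the HMGB1 window is chr13:30465937-30466186 (- strand, 58.4%) and the IGFBP3 window is chr7:45921273-45921522 (- strand, 76.0%).
LMNB1: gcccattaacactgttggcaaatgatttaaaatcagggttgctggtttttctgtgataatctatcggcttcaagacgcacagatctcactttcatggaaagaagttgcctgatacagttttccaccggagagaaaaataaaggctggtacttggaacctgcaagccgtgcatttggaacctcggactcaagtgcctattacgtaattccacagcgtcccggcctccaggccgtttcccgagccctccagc
HMGB1: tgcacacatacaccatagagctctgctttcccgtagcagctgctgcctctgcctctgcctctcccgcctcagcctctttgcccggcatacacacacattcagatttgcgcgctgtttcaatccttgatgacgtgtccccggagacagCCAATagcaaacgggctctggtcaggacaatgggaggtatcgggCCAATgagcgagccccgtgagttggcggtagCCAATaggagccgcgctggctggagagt
IGFBP3: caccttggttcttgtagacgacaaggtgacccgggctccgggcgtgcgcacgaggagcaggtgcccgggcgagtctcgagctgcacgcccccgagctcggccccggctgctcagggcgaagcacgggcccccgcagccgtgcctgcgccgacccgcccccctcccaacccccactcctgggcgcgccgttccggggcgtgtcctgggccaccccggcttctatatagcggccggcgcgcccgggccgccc
The HMGB1 window holds 3 CCAAT boxes, which begin 103, 59 and 28 bases before the start site, and the LMNB1 and IGFBP3 windows hold none. The letters CCAAT on either strand occur in 32.0% of the 35116 RefSeq windows of this length. Also searched on both strands were an E2F site (TTTCCCGC, TTTGGCGC, TTTCGCGC or TTTGCCGC, in 2.79% of windows), the CHR element TTTGAA (13.3%), the E-box CACGTG (6.34%), the CRE TGACGTCA (1.65%), the AP-1 site TGAGTCA (4.20%) and the TATA box TATAAA (10.7%), and none of these is in the 3 windows shown. Windows not shown differ from these. Another LMNB1 window, chr5:126776886-126777135, holds a CCAAT box and an E-box, and all 250 of its bases lie in exons of LMNB1. Another HMGB1 window, chr13:30465241-30465490, holds a CCAAT box and the CHR element. A match describes letters in a window and not a bound site.

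Normalised counts summed to 2.07e+07 at lowest and 2.27e+07 at highest in a library, and mitochondrial genes held 6.34% to 8.66% of it. Differences are log2 fold changes of the normalised count plus 1, fitted with limma over all 6 groups of a time point (16137 genes tested at 24 h and 16341 at 72 h) or all 12 groups (16850 genes), and a gene was past the test where its Benjamini-Hochberg adjusted p over all genes tested was at most 0.05. The median difference from vehicle over all genes was at lowest -0.003 and at highest 0.005 at 24 h, and at 72 h -0.008 and 0.006. All 11 luminal prostate markers were expressed, with a summed count of 103792 to 108950 in vehicle and 140507 to 181950 in treated libraries. In each treatment 7 to 10 of them were past the test as higher and 0 to 1 as lower. The shares of all genes were 14.2% to 20.9% higher and 13.5% to 19.8% lower. Basal (KRT5, TP63, KRT15), stromal (COL1A2, DCN, LUM), blood and endothelial (PTPRC, CD3E, PECAM1) and neuroendocrine (CHGA, CHGB, INSM1) markers had medians under 1. Other markers of the same lists, named after their values were seen, were expressed, with medians of 41.8 for KRT14 (basal), 490.2 for COL1A1 and 61.4 for ACTA2 (stromal), 359 for VWF and 73.6 for CD68 (blood and endothelial) and 236 for ENO2 (neuroendocrine, up to 1264). KRT14, the 1 basal marker tested, rose in 5 of 5 treatments at 24 h (1.36 to 2.02) and at 72 h (1.79 to 2.26). Summed counts in vehicle and treated libraries were 4.73 to 25.9 and 23.2 to 88.6 for 4 basal markers, 466 to 697 and 365 to 756 for 7 stromal, 258 to 486 and 257 to 830.4 for 5 blood and endothelial, and 103 to 258 and 105 to 1295 for 6 neuroendocrine markers. The part of these markers in the results was not tested.

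LMNB1, HMGB1 and HMGB2 fell in all 5 treatments at both time points. GDF15 rose in all 5 treatments at 72 h and in none past the test at 24 h, and IGFBP3, expected to rise, fell in all 5 at 72 h. Differences of GLB1 and FUCA1 did not exceed 0.37 on the log2 scale, and TIMP1 was listed at 0 in 34 of 36 libraries and was not tested. At 24 h, 3 of the 7 tested genes were lower in every treatment, against 13.5% of all genes with AU2-94 at 1 µM, 14.9% with AU2-94 at 2 µM, 15.4% with atirmociclib at 1 µM, 16.2% with atirmociclib at 2 µM and 15.2% with ribociclib. Higher at 24 h were 1 of 7 with AU2-94 at 1 µM (IGFBP3, against 14.3% of all genes), 2 with AU2-94 at 2 µM (FUCA1 and IGFBP3, 16%), 1 with atirmociclib at 1 µM (FUCA1, 16.6%), 2 with atirmociclib at 2 µM (GLB1 and FUCA1, 18.6%) and 1 with ribociclib (GLB1, 16.8%). At 72 h, 4 of 7 were lower in every treatment, against 17%, 15.3%, 19.8%, 19.6% and 15.4% of all genes in the same order of treatments. Higher at 72 h were 1 of 7 with AU2-94 at 1 µM (GDF15, against 15.4% of all genes), 1 with AU2-94 at 2 µM (GDF15, 14.2%), 3 with atirmociclib at 1 µM (GLB1, FUCA1 and GDF15, 20%), 2 with atirmociclib at 2 µM (GLB1 and GDF15, 20.9%) and 1 with ribociclib (GDF15, 15.5%). The 5 contrasts of a time point share their 3 vehicle libraries. The genes and the context lists were chosen with earlier results of these data known, so the comparison with all genes is a description only.

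LMNB1 encodes lamin B1 and lies on chromosome 5 from 126776623 to 126837020 (+ strand, 12 merged exons). Its normalised counts in vehicle were 4585, 4594 and 4438 at 24 h and 4374, 4677 and 4685 at 72 h. With AU2-94 at 24 h they were 2048, 1879 and 1959 at 1 µM and 1356, 1583 and 1617 at 2 µM, and with ribociclib 1383, 1592 and 1509. With atirmociclib at 24 h they were 1076, 1149 and 1174 at 1 µM and 1186, 999 and 1111 at 2 µM. No treated library at 24 h reached the lowest vehicle library, and those of atirmociclib lay below all others. At 72 h the values were 2602, 2493 and 2793 with AU2-94 at 1 µM, 2814, 2934 and 2756 at 2 µM, and 2374, 2221 and 2430.0 with ribociclib. Those of atirmociclib at 72 h were 1779, 1574 and 1630.0 at 1 µM and 1602, 1568 and 1461 at 2 µM. No treated group overlapped vehicle at 72 h either, and the group means were 33.7% to 61.9% of vehicle, against 24.2% to 43.2% at 24 h. Log2 fold changes were -1.21 and -1.58 with AU2-94 at 1 and 2 µM, -2.002 and -2.05 with atirmociclib and -1.60 with ribociclib at 24 h, with a standard error of 0.07 and no adjusted p above 1.32e-09. At 72 h they were -0.80, -0.69, -1.46, -1.57 and -0.97 in the same order (standard error 0.06, adjusted p at most 9.15e-08).

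HMGB2 encodes a chromatin protein that bends DNA, on chromosome 4 from 173331376 to 173334432 (- strand, 3 merged exons). It showed the largest fall of the 7 tested genes in each treatment at 24 h. Normalised counts in vehicle were 3031, 2984 and 2961 at 24 h and 2994, 3144 and 3085 at 72 h. At 24 h they were 947, 846 and 956 with AU2-94 at 1 µM, 622, 541 and 615 at 2 µM, and 481, 509 and 408 with ribociclib. Atirmociclib at 24 h gave 363, 280.1 and 276 at 1 µM and 351, 296 and 249.6 at 2 µM. Thus all 15 treated libraries of 24 h were far below vehicle, and the atirmociclib groups held 10.2% and 9.99% of the vehicle mean. At 72 h the values were 1846, 1910.2 and 1896 with AU2-94 at 1 µM, 2056, 2001 and 1843 at 2 µM, and 1466, 1437 and 1389 with ribociclib. With atirmociclib at 72 h they were 892, 859 and 875 at 1 µM and 612, 698 and 722 at 2 µM. Groups again did not overlap vehicle, with the AU2-94 means at 61.3% and 64.0% of it and the atirmociclib means at 28.5% and 22.03%. Log2 fold changes at 24 h were -1.71 and -2.34 with AU2-94 at 1 and 2 µM, -3.29 and -3.33 with atirmociclib and -2.69 with ribociclib (standard error 0.12, adjusted p at most 7.57e-09). At 72 h they were -0.71, -0.65, -1.81, -2.18 and -1.10 (standard error 0.06, adjusted p at most 2.76e-07).

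HMGB1, the more abundant relative of HMGB2 that also acts as an alarm signal when released, lies on chromosome 13 from 30456704 to 30617597 (- strand, 6 merged exons). Its fall was much smaller. Vehicle libraries held 7790.4, 7649 and 7522 normalised counts at 24 h and 7216, 7763 and 7335 at 72 h. At 24 h the 15 treated libraries ranged from 5087 to 6363, so that every one was below vehicle. At 72 h they ranged from 4381 to 5847, with atirmociclib lowest at 4682, 4806 and 4555 (1 µM) and 4455, 4381 and 4445 (2 µM). Log2 fold changes of HMGB1 at 24 h ran from -0.53 to -0.33, with a standard error of 0.04 and no adjusted p above 1.98e-05. At 72 h they ran from -0.75 to -0.43, with a standard error of 0.05 and no adjusted p above 3.46e-06. Stretches of 1206 and 648 bases at 98.2% and 98.1% identity join HMGB1 to the pseudogenes HMGB1P5 and HMGB1P6, which have no counts here. At 90% identity or more, HMGB1 shares stretches with 419 other genes, 382 of them with counts. Part of the HMGB1 reads may therefore be uncertain.

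Other proteins of the nuclear envelope and chromatin were more often called lower than higher. Of 24 genes in this list, 23 were tested, of which each treatment called 11 to 14 lower and 0 to 2 higher at 24 h (median log2 fold change -0.33 to -0.14). The 72 h treatments called 11 to 15 of them lower and 1 to 2 higher (median -0.27 to -0.18). Lower in all 5 treatments were 9 genes of the list at each time point. Among all genes tested, 13.5% to 16.2% were lower and 14.3% to 18.6% higher per treatment at 24 h. The corresponding shares at 72 h were 15.3% to 19.8% and 14.2% to 20.9%. TMPO, which encodes the lamina-associated LAP2 proteins, fell from 4729 ± 116 (SD, n = 3) to between 963 and 1688 at 24 h (log2 fold change -2.30 to -1.49, standard error 0.09) and also fell at 72 h (-1.89 to -0.78). LBR, the lamin B receptor, changed by -1.08 to -0.90 at 24 h, and HMGN2, a nucleosome-binding protein, by -1.28 to -0.62 at 72 h. LMNB2, the other B-type lamin, was lower in all 5 treatments at 24 h (-0.65 to -0.50) and at 72 h (-0.63 to -0.33), whereas LMNA, which encodes the A-type lamins, was past the test in 0 of 5 at either time (-0.15 to -0.02 at 24 h and -0.24 to 0.07 at 72 h). HMGB3 was lower in 5 of 5 at 24 h (-0.64 to -0.46) and in 4 of 5 at 72 h (-0.80 to -0.21). SYNE2, which links the envelope to the cytoskeleton, rose at 72 h (0.40 to 0.52).

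GLB1, the lysosomal beta-galactosidase whose activity is stained in senescent cells, lies on chromosome 3 from 32996609 to 33097202 (- strand, 25 merged exons). Vehicle libraries held 682, 699.8 and 732 normalised counts at 24 h and 829.8, 744 and 861 at 72 h. The treated libraries of 24 h held 701 to 875 and those of 72 h held 708 to 1076, and 5 of the 10 treated groups overlapped vehicle. GLB1 was past the test as higher with atirmociclib at 2 µM (0.23, 95% interval 0.06 to 0.40, adjusted p = 0.0310) and ribociclib (0.25, 0.09 to 0.42, adjusted p = 0.0194) at 24 h, and with atirmociclib at 1 µM (0.26, 0.06 to 0.46, adjusted p = 0.0399) and 2 µM (0.25, 0.05 to 0.45, adjusted p = 0.0453) at 72 h. Each of these 4 calls was lost without any 1 of 3 or 4 of the 6 libraries compared, and with the replicate number as a block the calls at 72 h had an adjusted p of 0.0538 and 0.0603. AU2-94 gave 0.14 and 0.17 at 24 h and -0.05 and -0.02 at 72 h, with upper bounds of 0.30 and 0.34, and 0.15 and 0.18. The exons of GLB1 share 253 bases with TMPPE on the same strand, a gene at 455 to 773 normalised counts here, so reads there may be uncertain.

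FUCA1, which removes fucose from glycoproteins in the lysosome, lies on chromosome 1 from 23845077 to 23868290 (- strand, 8 merged exons). Vehicle libraries held 289, 281 and 280.1 normalised counts at 24 h and 278, 264 and 324 at 72 h. Each of the 15 treated libraries of 24 h lay above vehicle, from 309.6 to 377, whereas at 72 h 4 of 5 treated groups overlapped it. Log2 fold changes at 24 h were 0.21 and 0.23 with AU2-94 at 1 and 2 µM (adjusted p = 0.0819 and 0.0497), 0.28 and 0.37 with atirmociclib (0.0188 and 0.00235) and 0.22 with ribociclib (0.0571), with a standard error of 0.09. At 72 h atirmociclib at 1 µM was past the test (0.30, 95% interval 0.09 to 0.50, adjusted p = 0.0240) and the other treatments gave -0.02 to 0.21. Of the 4 calls, only that of atirmociclib at 2 µM at 24 h held without any single library. The call of AU2-94 at 2 µM at 24 h was lost without any 1 of 5 libraries, and that of atirmociclib at 1 µM without replicate 3 of either group at 24 h or any 1 of 4 libraries at 72 h. With the replicate number as a block AU2-94 at 2 µM had an adjusted p of 0.0601. The atirmociclib libraries of 72 h stood apart from vehicle in their totals (22024631 to 22692555, against 21436280 to 21617499) and in their mitochondrial share (7.75% to 8.66%, against 6.76% to 7.42%). Replicate 2 of ribociclib at 72 h, at 7.76%, lay within the atirmociclib range of that share. At 24 h the totals of all 15 treated libraries also exceeded vehicle (21109729 to 22054249, against 20675156 to 20824457). The mitochondrial share at 24 h lay above vehicle (6.451% to 6.595%) with atirmociclib (6.661% to 7.697%) and ribociclib (7.002% to 7.207%). That of AU2-94 at 24 h (6.341% to 6.886%) overlapped vehicle. The part of the mitochondrial share in the results of 24 h and in the atirmociclib results of 72 h was not tested. Scaled to equal library totals, the 4 calls of GLB1 and the other 3 of FUCA1 were lost.

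Lysosomal genes were more often called higher than lower. All 39 genes of a list of lysosomal enzymes and membrane proteins were tested, of which 12 to 17 were higher and 3 to 6 lower per treatment at 24 h (medians 0.11 to 0.17), and 9 to 17 higher and 5 to 7 lower at 72 h (medians 0.02 to 0.18). Higher in all 5 treatments were 6 genes at 24 h and 9 at 72 h, and lower in all 5 were 2 and 4. Per treatment, 14.3% to 18.6% of all genes were higher and 13.5% to 16.2% lower at 24 h. At 72 h these shares were 14.2% to 20.9% and 15.3% to 19.8%. With AU2-94 at 1 µM at 72 h, 9 of 39 were higher and 7 lower (median 0.04), against 15.4% and 17% of all genes. With AU2-94 at 2 µM at 72 h, 10 were higher and 6 lower (median 0.02), against 14.2% and 15.3%. The sialidase NEU1 (0.45 to 0.60) and prosaposin (PSAP, 0.37 to 0.47) rose at 24 h, and the iduronidase IDUA (0.76 to 1.13) and arylsulfatase A (ARSA, 0.53 to 0.97) rose at 72 h. Beta-glucuronidase (GUSB) fell at both times (-0.57 to -0.33 and -0.98 to -0.30), as did arylsulfatase B (ARSB, -1.01 to -0.66) at 72 h.

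GDF15, a secreted stress cytokine of the TGF-beta family, lies on chromosome 19 from 18374731 to 18389176 (+ strand, 5 merged exons) and was the most abundant of the 8 genes per length. Its replicates disagreed at 24 h. Vehicle libraries held 5126, 6170.2 and 6109 normalised counts at 24 h. AU2-94 gave 2650.4, 9040.2 and 5288 at 1 µM and 12228, 10796 and 6078 at 2 µM. Atirmociclib gave 13518.5, 9444 and 12752 at 1 µM and 14733, 9586 and 3931 at 2 µM, and ribociclib 6811, 2869 and 6189. Only atirmociclib at 1 µM lay wholly above vehicle, and the coefficient of variation within treated groups was 18.2% to 57.4%. Log2 fold changes were -0.20, 0.68, 1.02, 0.51 and -0.23 (standard error 0.44), with adjusted p from 0.0867 to 0.778 and none past the test. When only the 2 groups compared were fitted, AU2-94 at 2 µM (0.68, adjusted p = 0.0337) and atirmociclib at 1 µM (1.02, adjusted p = 0.000283) were past the test at 24 h.

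The genes whose deviations from their group means followed those of GDF15 most closely over the 18 libraries of 24 h were chosen after their values were seen. They were ALDOA, a glycolytic aldolase (Pearson r = 0.973), the desmosome gene DSP (0.973), PRR36 (0.961), JUND (0.957), BHLHE40 (0.953), PFKFB4 (0.951), PLOD1 (0.947) and NDRG1 (0.946). These values are a description over libraries with shared processing. ALDOA in atirmociclib at 2 µM was 25428, 23566 and 18108 in replicates 1 to 3, in the order of GDF15, and the order of the 3 replicates was the same for both genes in 4 of 6 groups. Which library was highest had no single replicate number, since GDF15 was highest in replicate 2 of vehicle and of AU2-94 at 1 µM and in replicate 1 of the other 4 groups. The part of these genes in the spread of GDF15 was not tested.

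**Figure D1:**
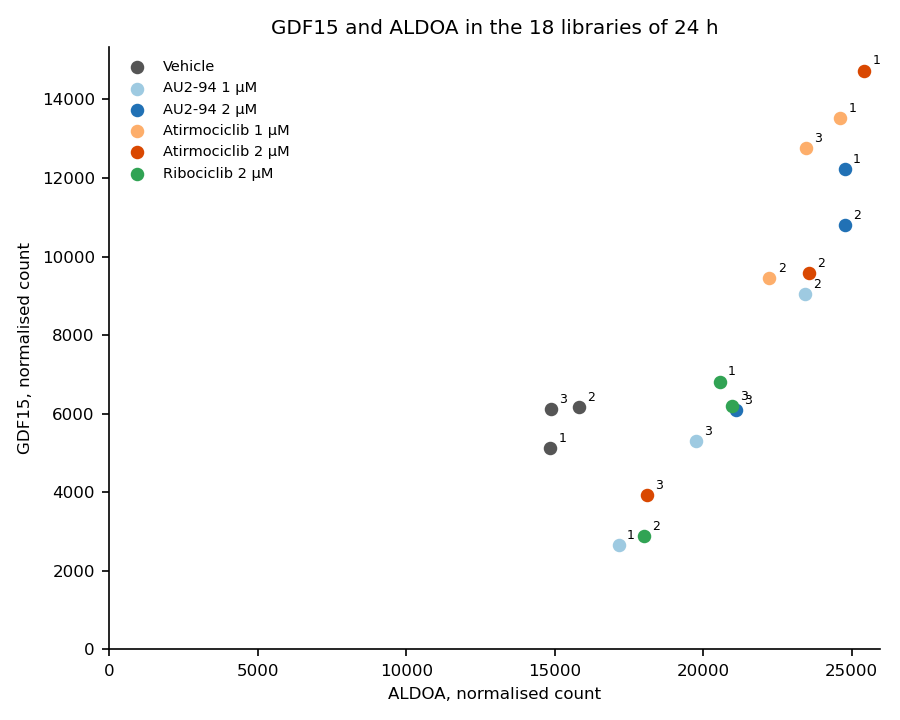
Normalised counts of GDF15 (vertical) and ALDOA (horizontal) in the 18 libraries of 24 h on linear axes from 0, coloured by treatment, with the replicate number beside each point. The 15 treated libraries run from low values of both genes to high values of both, and the 3 vehicle libraries lie apart at 14843 to 15817 for ALDOA.

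At 72 h the replicates of GDF15 lay closer together and each treated library was above vehicle. Vehicle libraries held 3987, 4033 and 4198 normalised counts. AU2-94 gave 12445, 12156 and 12515 at 1 µM and 9391, 11261 and 11583 at 2 µM. Atirmociclib gave 12158, 11364.5 and 15185 at 1 µM and 10784, 13031 and 13414 at 2 µM, and ribociclib 7360.3, 6425 and 9888. Group means were 194% (ribociclib) to 317% (atirmociclib at 1 µM) of vehicle. Log2 fold changes were 1.60 and 1.39 with AU2-94 at 1 and 2 µM, 1.65 and 1.60 with atirmociclib and 0.93 with ribociclib (standard error 0.13, adjusted p at most 1.65e-05). Vehicle itself was at 5802 ± 586 (SD, n = 3) at 24 h and 4073 ± 111 at 72 h, a difference of -0.51 that was not past the test (95% interval -1.23 to 0.21, adjusted p = 0.439).

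Genes known to induce GDF15 or act with it were called in both directions. Of 20 genes, 18 were tested at 24 h and 19 at 72 h, with 3 to 7 higher and 5 to 7 lower per treatment at 24 h and 4 to 7 higher and 7 to 9 lower at 72 h (medians -0.15 to 0.03 and -0.24 to -0.08). For comparison, 14.3% to 18.6% of all genes were higher and 13.5% to 16.2% lower at 24 h. Those shares were 14.2% to 20.9% and 15.3% to 19.8% at 72 h. The p53 target genes SESN1 (1.07 to 1.21 at 24 h, 0.78 to 1.15 at 72 h) and TP53INP1 (0.33 to 0.61 and 0.56 to 1.18) rose in all 5 treatments. CHAC1, a glutathione-degrading enzyme (-1.19 to -0.63 and -2.89 to -1.13), and ASNS, asparagine synthetase (-0.75 to -0.24 and -1.74 to -1.17), both targets of ATF4, fell in all 5. Named after their values were seen, ATF4 itself was lower in 5 of 5 at 24 h (-0.32 to -0.16) and at 72 h (-0.89 to -0.57), and CDKN1A, which encodes p21, was lower in 4 of 5 (-0.76 to -0.18) and 5 of 5 (-0.94 to -0.36). GFRAL, the receptor of GDF15, was at 0 in 35 of 36 libraries.

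IGFBP3, which binds insulin-like growth factors in the extracellular space, lies on chromosome 7 from 45912245 to 45921874 (- strand, 7 merged exons). It was the only one of the 7 tested genes with calls in both directions. At 24 h its normalised counts were 142, 182 and 190.1 in vehicle, 214, 263 and 209 with AU2-94 at 1 µM and 278, 241 and 227 at 2 µM. Atirmociclib gave 173, 166 and 211 at 1 µM and 247, 175 and 211 at 2 µM, and ribociclib 176, 179.8 and 177. Both AU2-94 groups lay above vehicle and the other 3 treated groups overlapped it. IGFBP3 was past the test as higher with AU2-94 at 1 µM (0.42, 95% interval 0.11 to 0.73, adjusted p = 0.0424) and 2 µM (0.54, 0.23 to 0.85, adjusted p = 0.00935), and the other treatments gave 0.06 to 0.30 (standard error 0.15). Without replicate 1 of vehicle the values were 0.29 (adjusted p = 0.200) and 0.41 (0.0602), and the call at 1 µM was also lost without replicate 1 or 2 of AU2-94 or replicate 2 of vehicle (adjusted p = 0.0567, 0.174 and 0.0548). With the replicate number as a block, the value at 1 µM had an adjusted p of 0.0587. The difference between AU2-94 and either other agent at a matched dose was not past the test.

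At 72 h IGFBP3 fell in every treatment. Vehicle libraries held 207, 259 and 203 normalised counts. AU2-94 gave 82.2, 67.0 and 83.7 at 1 µM and 95.5, 56.2 and 78.0 at 2 µM. Atirmociclib gave 59.1, 50.8 and 71.0 at 1 µM and 99.0, 83.7 and 80.9 at 2 µM, and ribociclib 88.0, 89.3 and 77.8. Every treated library lay far below the lowest vehicle library, and treated groups next to each other in the order of means overlapped. Log2 fold changes were -1.51, -1.55, -1.88, -1.33 and -1.37 (standard error 0.19, adjusted p at most 1.76e-05).

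Among the other genes of the IGF axis, 10 of 17 were tested, with 4 to 6 higher and 0 to 2 lower per treatment at 24 h and 1 to 4 higher and 1 to 4 lower at 72 h (medians 0.19 to 0.38 and 0.05 to 0.16). Of all genes, 14.3% to 18.6% were higher and 13.5% to 16.2% lower at 24 h. The shares of 72 h were 14.2% to 20.9% and 15.3% to 19.8%. The receptor IGF1R rose in all 5 treatments at 24 h (0.83 to 1.24) and at 72 h (0.44 to 1.05). TMEM219, described as a receptor for IGFBP3, rose at 24 h (0.31 to 0.45). IGFBP2, a far more abundant relative at 1108 ± 53.3 (SD, n = 3) in vehicle at 24 h, was higher in 5 of 5 at 24 h (0.30 to 0.40) and lower in 1 of 5 at 72 h (-0.19 to 0.15). IGFBP4, IGFBP5, IGFBP6 and IGFBP7 did not exceed 10.1 in any library.

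TIMP1, a secreted inhibitor of matrix metalloproteinases on chromosome X from 47582408 to 47586789 (+ strand, 6 merged exons), was listed at 0 in 34 libraries. The exceptions were 0.501 in replicate 3 of AU2-94 at 2 µM at 24 h and 4.17 in replicate 2 of atirmociclib at 2 µM at 72 h. It thus gave no measure of any treatment. TIMP2 was expressed at 537 ± 26.4 (SD, n = 3) in vehicle at 24 h and was higher in 1 of 5 treatments at 24 h (0.01 to 0.37) and in 5 of 5 at 72 h (0.35 to 0.82), whereas TIMP3 and TIMP4 did not exceed 3.87. Of 18 metalloproteinase and TIMP genes, 14 were tested, with 4 to 6 higher and 0 to 2 lower per treatment at 24 h and 8 to 10 higher and 0 to 1 lower at 72 h (medians -0.02 to 0.18 and 0.25 to 0.52). The all-gene shares were 14.3% to 18.6% higher and 13.5% to 16.2% lower at 24 h. They were 14.2% to 20.9% and 15.3% to 19.8% at 72 h. ADAMTS1 (0.74 to 0.92) and ADAM9 (0.55 to 0.58) rose at 24 h. MMP7, the protease matrilysin, rose at 72 h from 10.6 ± 0.615 to between 52.8 and 161 (2.22 to 3.78), and MMP24 from 19.5 ± 5.99 to between 94.9 and 109.9 (2.24 to 2.47).

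Most of the secreted factors of the senescent state could not be measured in these cells. Of 38 on the list, 35 were in the table, 19 had a median of 0 and 11 were tested. Named after their values were seen, IL6, CXCL8 and IL1A were at 0 in 34, 32 and 32 of 36 libraries and did not exceed 5.75. The tested genes showed 2 to 3 higher and 1 to 2 lower per treatment at 24 h and 2 to 3 higher and 1 to 5 lower at 72 h (medians -0.23 to -0.04 and -0.28 to -0.16). Over all genes 14.3% to 18.6% were higher and 13.5% to 16.2% lower at 24 h, and 14.2% to 20.9% higher and 15.3% to 19.8% lower at 72 h. STC1, a glycoprotein hormone, rose at both times (1.69 to 2.82, standard error 0.64, and 1.58 to 2.87, standard error 0.38) from 24.5 ± 26.5 and 13.96 ± 5.46 in vehicle. TNFRSF10C, a decoy receptor of TRAIL, rose at 24 h (0.97 to 1.27) and VEGFA at 72 h (0.67 to 0.89). Fibronectin (FN1) fell at 24 h (-0.78 to -0.30) and TNFRSF1A at 72 h (-0.28 to -0.21).

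Most genes of the cell cycle were lower. Of 24 proliferation and growth arrest genes, 18 to 20 were lower and 1 higher per treatment at 24 h and 17 to 20 lower and 1 higher at 72 h (medians -1.54 to -0.76 and -1.004 to -0.53). By contrast, 13.5% to 16.2% of all genes were lower and 14.3% to 18.6% higher at 24 h. Shares at 72 h were 15.3% to 19.8% and 14.2% to 20.9%. RRM2, a subunit of ribonucleotide reductase, fell at 24 h (-4.43 to -1.95) and at 72 h (-2.20 to -1.02). MKI67, the gene of the Ki-67 antigen, fell at 24 h (-3.80 to -1.99). CDKN2C, which encodes the CDK4 inhibitor p18, fell at 72 h (-2.73 to -1.11). CCND1, cyclin D1, was the gene that rose (0.56 to 0.70 and 0.31 to 0.58).

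Agents were next compared at matched doses. Atirmociclib gave lower LMNB1, HMGB1 and HMGB2 than AU2-94 at 1 µM at 24 h, which made 3 of 7 genes past the test against 4.64% of all genes, with differences of -0.79 (95% interval -0.95 to -0.64), -0.21 (-0.30 to -0.11) and -1.59 (-1.84 to -1.33). At 2 µM and 24 h, 2 of 7 were past the test (9.44% of all genes), LMNB1 by -0.47 (-0.62 to -0.31) and HMGB2 by -0.996 (-1.25 to -0.74). At 72 h the same 3 genes were lower with atirmociclib at 1 µM (8.24% of all genes), by -0.66, -0.21 and -1.11, and at 2 µM (19.8%), by -0.88 (-1.002 to -0.75), -0.32 (-0.42 to -0.22) and -1.54 (-1.67 to -1.41). The HMGB1 difference at 1 µM was lost at either time without replicate 3 of atirmociclib (adjusted p = 0.0554 and 0.0529) or 1 AU2-94 library, replicate 3 at 24 h and replicate 1 at 72 h (0.0583 and 0.0527). At 24 h it was also lost when limma fitted only the 2 groups compared (adjusted p = 0.0796).

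Atirmociclib was also lower than ribociclib at 2 µM, for 2 of 7 genes at 24 h (4.64% of all genes), LMNB1 by -0.44 and HMGB2 by -0.65, and for 4 of 7 at 72 h in either direction (9.18%). These were LMNB1 (-0.60, -0.73 to -0.48), HMGB1 (-0.30, -0.40 to -0.19) and HMGB2 (-1.08, -1.21 to -0.95), lower, and GDF15 (0.67, 0.40 to 0.94, adjusted p = 0.00181), higher. Between ribociclib and AU2-94 at 2 µM, 0 of 7 were past the test at 24 h (0.0372% of all genes, limma, with 2 of 7 at an unadjusted p under 0.05). Here the difference was -0.02 (-0.18 to 0.14) for LMNB1 and -0.35 (-0.60 to -0.09) for HMGB2. At 72 h 2 of 7 were past it (3.34%), LMNB1 by -0.28 (adjusted p = 0.0155) and HMGB2 by -0.46 (adjusted p = 0.000407), the first of which was lost without replicate 2 of either group (adjusted p = 0.0763 and 0.0741). This LMNB1 difference was also lost when limma fitted only the 2 groups compared (adjusted p = 0.0768). The difference of GDF15 was -0.46 (-0.73 to -0.20, adjusted p = 0.0523), and with the replicate number as a block this difference had an adjusted p of 0.0188. GLB1 was 0.31 and 0.27 higher with atirmociclib than with AU2-94 at 72 h at 1 and 2 µM (adjusted p = 0.0531 and 0.0545). GLB1, FUCA1 and IGFBP3 were past the test in none of these comparisons of agents, with intervals of the differences from -0.38 to 0.51 for GLB1 and FUCA1 and from -0.79 to 0.94 for IGFBP3 over all agent and dose comparisons.

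Dose moved few of the genes. At 24 h AU2-94 at 2 µM gave lower LMNB1 (-0.37, -0.53 to -0.22, adjusted p = 0.0297) and HMGB2 (-0.63, -0.88 to -0.37, adjusted p = 0.0260) than at 1 µM, 2 of 7 genes against 0.409% of all genes. Each difference was lost without any 1 of 4 of the 6 libraries (adjusted p from 0.0561 to 0.192 for LMNB1 and from 0.0861 to 0.146 for HMGB2), and that of LMNB1 had an adjusted p of 0.0506 with the replicate number as a block. Both were also lost in limma with no trend (adjusted p = 0.0963 for LMNB1 and 0.0783 for HMGB2). Fitting only the 2 AU2-94 groups lost both as well (adjusted p = 0.160 and 0.0549). At 72 h the doses of AU2-94 gave 0 of 7 genes past the test, as 0% of all genes were (limma, 0 of 7 at an unadjusted p under 0.05), with LMNB1 at 0.11 (-0.01 to 0.23) and HMGB2 at 0.06 (-0.07 to 0.19). For atirmociclib 0 of 7 were past the test at 24 h (0.0124% of all genes, 0 of 7 at an unadjusted p under 0.05 in limma), and at 72 h 1 of 7 (2.19%), HMGB2, was lower at 2 µM (-0.37, -0.50 to -0.25, adjusted p = 0.00329), a call that was lost when only these 2 groups were fitted (adjusted p = 0.0632).

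The change of each effect with time was tested as the difference from vehicle at 72 h minus that at 24 h. Past the test were 4 of 7 genes with AU2-94 at 1 µM (21.6% of all genes), 3 with AU2-94 at 2 µM (18.5%), 3 with atirmociclib at 1 µM (21.9%), 4 with atirmociclib at 2 µM (21.6%) and 3 with ribociclib (20.2%). HMGB2 was less far below vehicle at 72 h in all 5 treatments, by 1.00 to 1.69 (standard error 0.14), and LMNB1 by 0.41 to 0.89 (standard error 0.10). HMGB1 did not share this pattern, with changes of -0.25 to -0.01 and a larger fall at 72 h past the test for atirmociclib at 2 µM. IGFBP3 changed by -2.09 to -1.44 (standard error 0.24) in all 5 treatments. For GDF15 the change was 1.81 with AU2-94 at 1 µM and 0.63 to 1.16 with the others, which were not past the test (standard error 0.50). In vehicle, 72 h against 24 h gave 0 of 7 genes past the test (7.5% of all genes, limma, 2 of 7 at an unadjusted p under 0.05), namely GLB1 (0.20, 0.02 to 0.38) and IGFBP3 (0.38, 0.04 to 0.73).

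**Figure D2:**
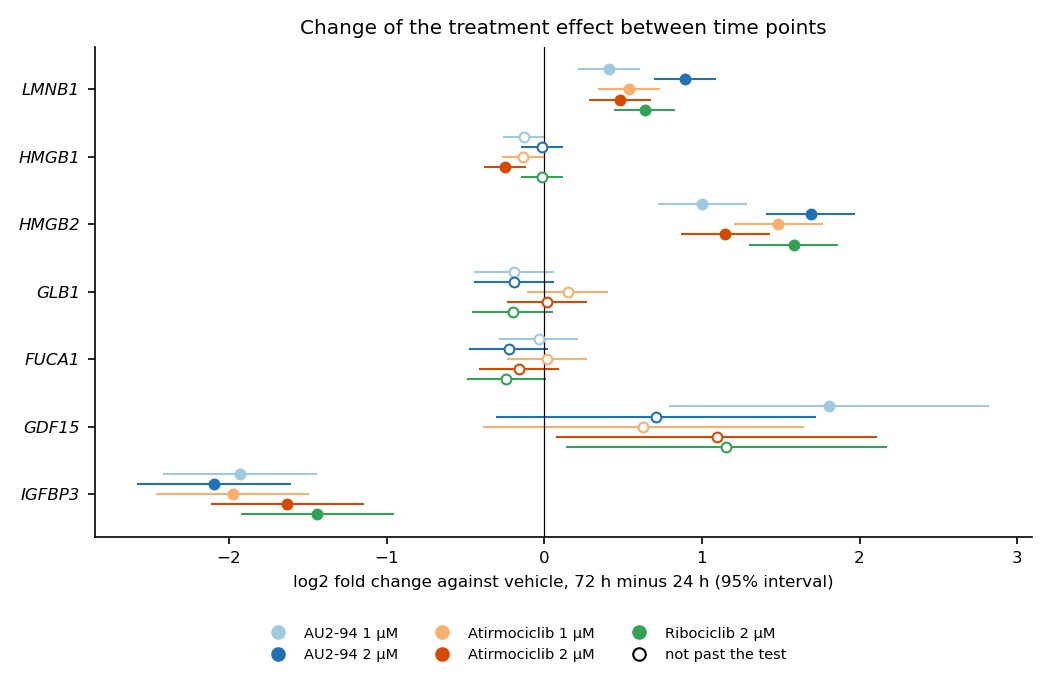
Change of the log2 fold change against vehicle between time points (72 h minus 24 h) for the 7 tested genes with 95% intervals; colours give the treatment and filled points are past the test. LMNB1 (0.41 to 0.89) and HMGB2 (1.00 to 1.69) lie right of 0 in all 5 treatments and IGFBP3 (-2.09 to -1.44) lies left of it.

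Across the 12 groups, levels per kilobase of exon in vehicle at 24 h were 2780.0 normalised counts for GDF15 (place 176 of 29856 genes), 1249 for LMNB1 (490), 1246 for HMGB2 (491), 994 for HMGB1 (640), 163 for GLB1 (5118), 139 for FUCA1 (5775) and 37.5 for IGFBP3 (10561). The order of group means was led by vehicle for LMNB1, HMGB1 and HMGB2, and the 2 vehicle groups overlapped each other and no treated group. LMNB1 and HMGB2 then ran from AU2-94 at 72 h through ribociclib at 72 h to atirmociclib at 24 h at the bottom, and 5 and 6 of the 11 steps between neighbours had ranges that did not overlap. The lowest HMGB1 groups were instead atirmociclib at 72 h. For GLB1, FUCA1, GDF15 and IGFBP3, 10 of 11 neighbours overlapped. For IGFBP3 the 1 step without overlap separated all libraries, since the 5 treated groups of 72 h did not exceed 99.0 and no other library was below 142. For GLB1, FUCA1 and GDF15 only the 2 neighbours at that step were apart, and libraries of other groups lay across it.

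By Pearson correlation of log2 values over the 36 libraries, the genes most like LMNB1 among 12474 were H2AX (0.989), H2BC18 (0.988) and H2BC7 (0.985), and those most like HMGB2 were CDCA3 (0.990), H2AC14 (0.989) and CCNA2 (0.989). HMGB1 was most like SLC37A4 (0.947), PTMA (0.945) and H2AZ2 (0.940). Among those most like GLB1 were FKBP1A (0.761) and MT-CO3 (0.757), and those most like FUCA1 were ACTRT3 (0.772), SLC5A4-AS1 (0.761) and STEAP2 (0.758). GDF15 was most like PLOD1 (0.892), ABHD2 (0.878) and MKNK2 (0.847), and IGFBP3 most like MTERF4 (0.937), EIF4A1 (0.933) and ID1 (0.919). These libraries share their groups and processing, so the correlations describe likeness of pattern only.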

How the data were processed

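Total RNA libraries were sequenced by the authors, and the submitters' notes name GRCh38, STAR 2.6.1d and DESeq2, while the methods name an nf-core RNA-seq workflow. The counting tool, annotation release and strand setting are not given in the sources used here. The deposited values are normalised counts per gene, a signal that is not whole reads, so read depth is unknown and no count model was fitted. Values were tested as log2(value + 1) with limma 3.58.1 (R 4.3.3, trended variance, no replicate block), for genes with a value of 10 or more in 3 or more libraries of the fit, and p-values were adjusted by Benjamini-Hochberg. The replicate number is labelled as a batch and was used to pair samples across groups only in the alternative with a replicate block. Deviations from group means correlated by 0.0018 on average between samples with the same number at 24 h and by -0.0022 at 72 h. Symbols and positions came from GENCODE release 44, and near-identical copies from BLAST 2.17.0. The members and lists were chosen with earlier results of these data known, and the lists were written from general knowledge. Context genes named were, per list, time and direction, the 2 genes past the test in all 5 treatments, at a mean of at least 50, whose mean log2 fold change was largest, and relatives of the 8 genes. Some genes that this rule names are not reported here. Scripts were tested on simulated data. Alternatives were the pseudocount, filter, scaling, trend, replicate block, groups fitted and each library left out.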

Additional observations from a re-analysis of the deposited data

Results flagged for a closer look

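The results below stand out because the effect of a treatment differed between 24 h and 72 h by a direct test of that difference in the fit of all 36 libraries (limma, adjusted p over 16850 genes). Values are the log2 fold change against vehicle at 72 h minus that at 24 h, so a positive value of a gene that fell means a smaller fall at 72 h. Groups held 3 libraries each and single libraries were therefore not tested for distance from their group.

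For LMNB1 the difference was 0.41 with AU2-94 at 1 µM (adjusted p = 0.00214), 0.89 with AU2-94 at 2 µM (3.94e-08), 0.54 with atirmociclib at 1 µM (9.46e-05), 0.48 with atirmociclib at 2 µM (0.00039) and 0.64 with ribociclib (1.03e-05). For HMGB2 it was 1.00 (3.26e-06), 1.69 (2.44e-10), 1.48 (2.24e-09), 1.15 (2.48e-07) and 1.58 (1.00e-09) in the same order. HMGB1 differed in the opposite direction with atirmociclib at 2 µM, by -0.25 (adjusted p = 0.00534).

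The difference for IGFBP3 was -1.93 (adjusted p = 5.98e-07), -2.09 (1.09e-07), -1.98 (2.63e-07), -1.63 (6.30e-06) and -1.44 (4.15e-05). GDF15 differed with AU2-94 at 1 µM by 1.81 (adjusted p = 0.00859), where its 24 h replicates ranged from 2650.4 to 9040.2 normalised counts. Plating density differed between the time points and cannot be told apart from time.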

How the results depend on the processing

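Under the alternatives, 3198 values of single genes kept direction and call, 79 lost a call and 27 gained one. LMNB1, HMGB1 and HMGB2 stayed lower than vehicle in every treatment under all alternatives, as did IGFBP3 at 72 h. Among the counts against vehicle, those of higher genes were the ones that moved. Counts between treatments and of the change of effect also moved, as given below. At 24 h the count for AU2-94 at 1 µM (1) became 0 with no filter, 2 with quantile normalisation, 0 with equal totals, 2 with no trend and 0 with only the groups compared. That for AU2-94 at 2 µM (2) became 1 with a pseudocount of 8, no filter, equal totals or TMM factors. With equal totals it was 0 for atirmociclib at 1 µM and ribociclib and 1 for atirmociclib at 2 µM at 24 h, and 1 for both atirmociclib doses at 72 h. Ribociclib at 24 h gave 2 with a mean filter of 100, quantile normalisation or no trend. Atirmociclib at 2 µM at 72 h gave 1 with no filter, TMM factors, no trend or only the groups compared. Equal totals shifted the median of all genes most for atirmociclib against AU2-94 at 2 µM at 72 h, by -0.104.

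With the replicate number as a block (replicate block), the counts of higher genes were 0 for AU2-94 at 1 µM and 1 at 2 µM at 24 h, while atirmociclib at 72 h gave 2 at the lower and 1 at the higher dose. Counts of lower genes were 3 at 24 h and 4 at 72 h, and those between treatments 8 and 14, with 17 for the change of effect. The block changed no call beyond those given beside their results.

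Leaving out single libraries gave 0 to 1 higher genes for AU2-94 at 1 µM, 0 to 3 at 2 µM, 0 to 1 for atirmociclib at 1 µM, 1 to 2 at 2 µM and 0 to 1 for ribociclib at 24 h. At 72 h it gave 1 to 1 for both AU2-94 doses and ribociclib and 1 to 3 for both atirmociclib doses. Counts of lower genes ran from 3 to 3 and 4 to 4, those between treatments from 6 to 10 and from 12 to 14, the change of effect from 17 to 18 and vehicle over time from 0 to 0. Without replicate 1 of atirmociclib at 2 µM at 24 h, the change of GDF15 there was 1.51 (adjusted p = 0.0260). With 3 libraries per group and the spread of GDF15 at 24 h, its standard error against vehicle was 0.44 on the log2 scale. Read depth is unknown from normalised values.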

Other observations

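CDKN2A, which encodes p16 and ARF and is named after its values were seen, was lower in every treatment. It held 466 ± 35.0 (SD, n = 3) normalised counts in vehicle at 24 h and 288 to 329 in treated groups, with log2 fold changes of -0.70 to -0.50 and 5 of 5 past the test. At 72 h it held 526 ± 72.3 in vehicle and 226 to 349.8 in treated groups (-1.21 to -0.58, 5 of 5 past the test). Since the values are RNA from whole wells, they say nothing of the protein.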
